A study of Homo sapiens with 9 samples.

Results

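The genes described here encode the lysosomal proton pump, the V-ATPase, and the machinery that senses nutrients on the lysosome and controls the transcription factor TFEB. Of 37 listed genes, 35 had a probe set annotated to that gene alone, among 19775 genes measured in this way on the array. They divide into 15 measured pump subunits of 16 and 20 measured nutrient-sensing genes of 21. The V1 subunit ATP6V1F was read only by a probe set it shares with a second gene, LOC101927180, and the Ragulator subunit LAMTOR1 was not analysed here. Each measured gene was represented by its brightest probe set, chosen without regard to the groups. Messenger RNA came from HT1080 cells, an established human fibrosarcoma line, seeded on fibrillar bovine collagen and treated after 24 h of adhesion. The groups were cells given a protease inhibitor mix for 24 h (PI 24 h), cells given it for 4 h (PI 4 h) and untreated cells, with 3 one-colour arrays each. It combined a metalloproteinase inhibitor (100 µM GM6001) with inhibitors of cysteine (250 µM E64), aspartic (50 µM pepstatin A) and serine proteases (2 µM aprotinin and 2 µM leupeptin). The series' design text calls the cocktail a kinase inhibitor, whereas the title and the compounds named are protease inhibitors. The titles of the untreated arrays name a vehicle, while their treatment label says untreated, and the sources used here do not give their harvest time, so time on collagen and treatment cannot be told apart. All groups are 1 cell line under 10% serum, called biological replicates by the submitters.

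The V-ATPase has a membrane sector, V0, that carries protons, and a cytosolic sector, V1, that hydrolyses ATP to drive them, and it acidifies the lysosome so that cathepsins can work. The pump binds Ragulator, a scaffold on the lysosomal membrane, which holds the Rag GTPases, and amino acids set the nucleotide state of the Rags so that they recruit the growth kinase complex mTORC1. Folliculin with FNIP1 or FNIP2 acts on RRAGC and RRAGD and thereby lets mTORC1 phosphorylate TFEB and TFE3, which keeps these factors in the cytosol. When that phosphorylation is lost, as under starvation or lysosomal stress, they enter the nucleus and bind CACGTG-type elements, the CLEAR network, in genes of lysosomal proteins that include pump subunits. E64, leupeptin and pepstatin A inhibit cysteine and aspartic cathepsins, which are lysosomal enzymes. Array values report transcripts and carry no information on phosphorylation, location or pump activity.

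The core of the element that TFEB is known to bind was searched for in RefSeq promoter windows on GRCh38.p14, each running from 250 bases before a gene's start site to 50 bases after it. The letters searched were CACGTG, which read the same on both strands. They occurred in 2548 of 35116 windows (7.26%), and in 9 of 42 windows of 30 of the listed genes (21.4%). A longer form, TCACGTGA, contains the core and occurred in 344 windows (0.98%). Of the listed genes, 4 held this form, namely ATP6V0D1, ATP6V1G1, RRAGB and TSC2. RRAGC and LAMTOR4 did not. The 9 genes with the core were ATP6V0B, ATP6V0D1 and ATP6V1G1 among 11 pump genes with a window, and RRAGB, RRAGC, LAMTOR1, LAMTOR4, FNIP1 and TSC2 among 19 nutrient-sensing genes with one. The windows of RRAGC and LAMTOR4 are shown whole, because these were the nutrient-sensing genes with the smallest p at 24 h and they differed from untreated cells in opposite directions. Stretches of 50 bases around the core are shown for the other measured genes that held it. Capitals mark the core, all are written 5′ to 3′ on the gene's own strand, and a match is a description of the letters, not a site.
RRAGC, chr1:38859723-38860022, minus strand: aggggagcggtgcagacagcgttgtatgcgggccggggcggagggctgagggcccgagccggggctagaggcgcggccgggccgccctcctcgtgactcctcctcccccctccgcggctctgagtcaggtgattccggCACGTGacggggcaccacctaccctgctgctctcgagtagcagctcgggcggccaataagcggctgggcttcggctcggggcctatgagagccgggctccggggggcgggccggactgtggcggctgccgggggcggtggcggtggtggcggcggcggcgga
LAMTOR4, chr7:100148668-100148967, plus strand: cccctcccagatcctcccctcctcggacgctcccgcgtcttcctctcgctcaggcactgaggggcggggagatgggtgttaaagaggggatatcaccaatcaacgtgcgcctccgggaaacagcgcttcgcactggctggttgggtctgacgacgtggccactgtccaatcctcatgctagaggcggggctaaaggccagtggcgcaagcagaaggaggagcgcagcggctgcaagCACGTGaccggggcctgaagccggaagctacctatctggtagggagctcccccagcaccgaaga
ATP6V0B, chr1:43974881-43974930, plus strand: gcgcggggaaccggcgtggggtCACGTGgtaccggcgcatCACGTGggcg
ATP6V0D1, chr16:67481189-67481238, minus strand: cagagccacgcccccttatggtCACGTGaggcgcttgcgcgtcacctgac
ATP6V1G1, chr9:114587689-114587738, plus strand: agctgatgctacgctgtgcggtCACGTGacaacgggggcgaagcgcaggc
RRAGB, chrX:55717702-55717751, plus strand: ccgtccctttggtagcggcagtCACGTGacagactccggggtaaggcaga
FNIP1, chr5:131797165-131797214, minus strand: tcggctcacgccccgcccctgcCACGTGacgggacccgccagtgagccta
TSC2, chr16:2047849-2047898, plus strand: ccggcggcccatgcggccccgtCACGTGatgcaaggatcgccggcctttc
The core began 112 bases before the start site in RRAGC and 14 bases before it in LAMTOR4. ATP6V0B held it 2 times within 1 stretch, at 57 and 39 bases before the start site. RRAGB held it 3 times and FNIP1 2 times, and 1 occurrence of each is shown.

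All values are the deposited linear intensities, scaled by the time of deposit to a common trimmed mean on every array, so a change in the total messenger RNA of a cell would not be seen, and an altered level in every cell cannot be told from one in some of the cells. Differences are on the scale of log2(intensity + 16), from a limma model over all 9 arrays, with p-values adjusted by Benjamini-Hochberg over the 19775 genes and a threshold of 0.05. The median intensity of an array lay between 14.2 and 18.2. Some array measures followed the groups. Poly-A spike transcripts, bacterial RNAs put into the sample before labelling, averaged 10.72 ± 0.04 (log2 intensity) at 24 h, 2.49-fold that of untreated arrays, and 10.29 ± 0.21 at 4 h, 1.85-fold, against 9.41 ± 0.08 in untreated cells (SD, n = 3; exact permutation p = 0.1 each, the smallest that 3 against 3 allows). For ACTB, the 5′ signal over the 3′ signal, which reflects RNA length, was 0.697 ± 0.038 at 24 h and 0.723 ± 0.132 at 4 h. In untreated cells it was 0.893 ± 0.034 (exact permutation p = 0.1 at 24 h and 0.2 at 4 h, with overlap at 4 h). Hybridisation controls averaged 10.49 ± 0.15 at 24 h and 10.47 ± 0.14 at 4 h (log2 intensity). In untreated cells they averaged 10.34 ± 0.14 (exact permutation p = 0.2 and 0.3). PI 4 h replicate 2 stood apart from the other 4 h arrays, with a first principal component of -13.4 against 8.63 and 15.5, and an ACTB ratio of 0.871. The part of these measures in the differences below was not tested. All 5 measured mesenchymal markers were bright, with a summed intensity of 16594 to 17520 at 24 h, 15320 to 18178 at 4 h and 14014 to 16210 in untreated cells, whereas all 5 epithelial markers averaged below 16. Of the leukocyte, endothelial and melanocyte markers, 4 of 5, 4 of 5 and 3 of 4 averaged below 16. The endothelial sum was 70.1 to 116.6 at 24 h, against 32.2 to 47.8 in untreated cells.

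After 24 h of inhibition no listed gene passed the threshold, while 13 of 15 pump subunits lay above their untreated level and the nutrient-sensing genes lay on both sides of theirs. The median log2 difference was 0.26 over the pump subunits and 0.06 over the 20 nutrient-sensing genes, beside 0.01 over all genes. RRAGC, a Rag GTPase, was nearest to the threshold at 1.80-fold. By limma, 92 of 19775 genes passed (0.465%) and 0 of 35 listed genes did. At an unadjusted p under 0.05, 8 listed genes were higher and 4 lower, where 8.17% of all genes were higher and 7.62% lower. Other ways of fitting called up to 5 listed genes: 4 with a pseudocount of 64 and 5 with a variance trend on intensity, fits that each called 4.18% of all genes.

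**Figure D1:**
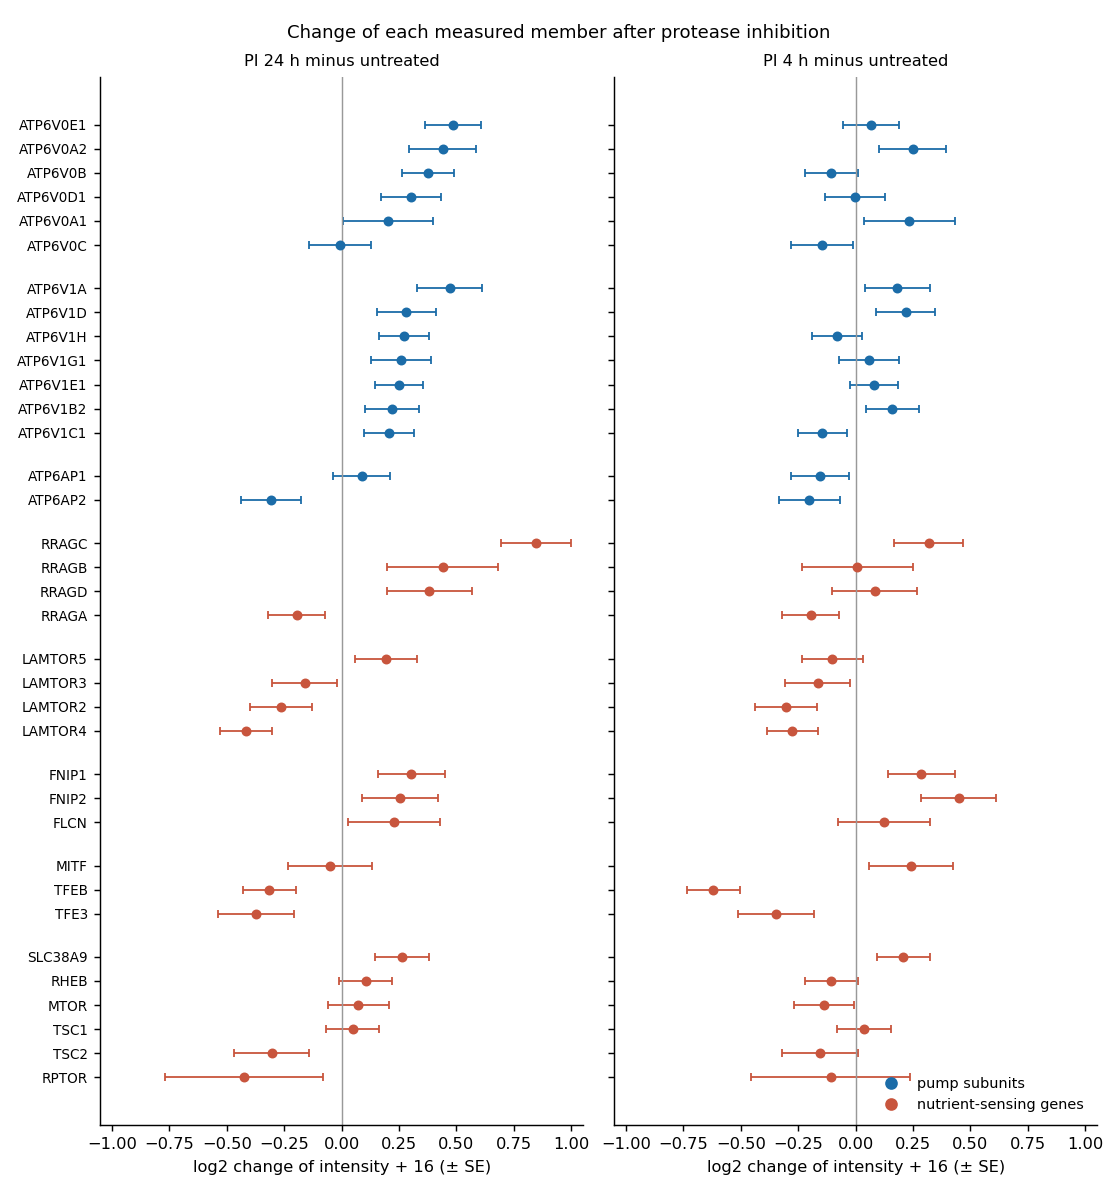
Log2 difference of intensity + 16 for each of the 35 measured genes, with its standard error from the limma model. The left panel shows PI 24 h minus untreated and the right panel PI 4 h minus untreated, with pump subunits in blue (V0, V1 and accessory subunits from top to bottom) and nutrient-sensing genes in red, by role. At 24 h 13 of 15 pump subunits lie right of 0, and RRAGC lies farthest right at 0.85; at 4 h TFEB lies farthest left at -0.62.

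Among the V0 subunits, ATP6V0E1, a small membrane subunit of the proton-carrying sector, read 4051.2, 4051.8 and 4306.4 at 24 h, against 3033.4, 2792.5 and 3029.9 in untreated cells. The groups did not overlap, and the log2 difference was 0.48 ± 0.12 (SE), or 1.40-fold, with an adjusted p of 0.106 by limma. ATP6V0B, a proteolipid of the rotating ring, read 2823.2, 2513.6 and 2590.0 at 24 h, against 1892.3, 2030.0 and 2179.7 in untreated cells. Its groups did not overlap either, at 1.30-fold (adjusted p = 0.153, limma). ATP6V0A2, an isoform of the subunit that forms the proton path, read 127.0, 106.7 and 122.4 at 24 h, against 70.3, 94.4 and 86.0 in untreated cells, or 1.36-fold (adjusted p = 0.182, limma). ATP6V0D1, which couples the ring to the stalk, read 2197.5, 2408.4 and 2309.9 at 24 h, against 1724.1, 1938.3 and 1948.1 in untreated cells. Every 24 h array of these genes lay above every untreated array. The remaining V0 subunits did not separate. ATP6V0A1, another isoform of the proton path subunit, differed by 0.20 ± 0.20 on the log2 scale, and ATP6V0C, the main ring proteolipid, by -0.01 ± 0.14. Over the 6 V0 subunits the median log2 difference was 0.34, with 4 higher at an unadjusted p under 0.05, where 8.17% of all genes were, and 160 of the 999 genes at least as bright as the median pump subunit.

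Each of the 7 measured V1 subunits had all 3 of its 24 h arrays above all 3 untreated arrays, with log2 differences between 0.21 and 0.47 and a median of 0.26. Of all genes 12.8% were separated upward in this way, and of the 999 genes at least as bright as the median pump subunit 38.9% were. ATP6V1A, the catalytic subunit that binds ATP, read 1941.8, 1930.8 and 1773.4 at 24 h, against 1342.7, 1341.3 and 1375.2 in untreated cells. This was 1.39-fold, with a log2 difference of 0.47 ± 0.14 and an adjusted p of 0.149 by limma. ATP6V1H, a regulatory subunit that links the sectors, read 685.2, 755.0 and 713.9 at 24 h, against 583.7, 571.0 and 621.8 in untreated cells. The 2 groups did not overlap, at 1.21-fold (adjusted p = 0.263, limma). ATP6V1E1, part of the peripheral stalk, read 1660.2, 1633.9 and 1534.5 at 24 h, against 1428.3, 1325.5 and 1297.0 in untreated cells, or 1.19-fold (adjusted p = 0.288, limma). These were the V1 subunits at an unadjusted p under 0.05. The 4 others were ATP6V1D of the central shaft, ATP6V1G1 of the stalk, ATP6V1B2 of the catalytic head, and ATP6V1C1. Their log2 differences ran from 0.21 for ATP6V1C1 to 0.28 for ATP6V1D. The probe set that ATP6V1F shares with LOC101927180 read 2681.0, 2744.7 and 1995.1 at 24 h, against 2086.6, 2180.5 and 2282.6 in untreated cells, with overlapping groups.

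Of the accessory subunits, ATP6AP2, the prorenin receptor, which takes part in pump assembly, read 666.6, 553.5 and 667.6 at 24 h, against 807.2, 734.0 and 800.4 in untreated cells. It was the only pump gene whose 24 h arrays all lay below the untreated arrays, at 1.24-fold lower (log2 difference -0.31 ± 0.13, adjusted p = 0.296, limma). ATP6AP1, a glycoprotein of the V0 sector's lumenal side, differed by 0.09 ± 0.13 on the log2 scale with overlapping groups. Across the pump, the groups did not overlap for 11 subunits that were higher and 1 that was lower, where 12.8% of all genes were separated upward and 12.2% downward. Most pump subunits are bright on this array, and among the 999 bright genes the median log2 difference was 0.08 and 63.4% lay above 0. The pump median was 0.11 when all probe sets of a gene were averaged.

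Among the Rag GTPases, the pair of RRAGA or RRAGB with RRAGC or RRAGD that recruits mTORC1, members differed in direction at 24 h. RRAGC read 1269, 1655 and 1628.5 at 24 h, against 855.9, 807.9 and 830.3 in untreated cells. Every 24 h array exceeded every untreated array, and the log2 difference was 0.85 ± 0.15, or 1.80-fold, with an adjusted p of 0.0502 by limma. Its p fell under the threshold in 7 other fits, with adjusted values between 0.00319 and 0.0489, among them the fits without PI 4 h replicate 2 (0.0434) and without PI 4 h replicate 3 (0.0448), and was 0.601 on the second brightest probe set. A second RRAGC probe set read 510.9, 691.6 and 745.5 at 24 h, against 532.8, 566.7 and 551.6 in untreated cells. There the groups overlapped, through replicate 1 of the 24 h arrays, and the log2 difference was 0.22. RRAGD, a paralog that can take the place of RRAGC and is itself a known TFEB target, read 168.3, 256.2 and 211.1 at 24 h, against 180.2, 168.2 and 126.5 in untreated cells. Its groups overlapped (log2 difference 0.38 ± 0.18, adjusted p = 0.357, limma). A dimmer RRAGD probe set, named after its values were seen, was separated upward. It read 52.2, 49.9 and 50.8 at 24 h, against 37.3, 32.3 and 38.3 in untreated cells. RRAGB was dim, at 31.3, 20.8 and 13.6 at 24 h against 7.7, 12.3 and 14.7 in untreated cells, and its groups overlapped. RRAGA lay below its untreated level on all 3 arrays at 24 h, by 0.20 ± 0.12 on the log2 scale (adjusted p = 0.495, limma).

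**Figure D2:**
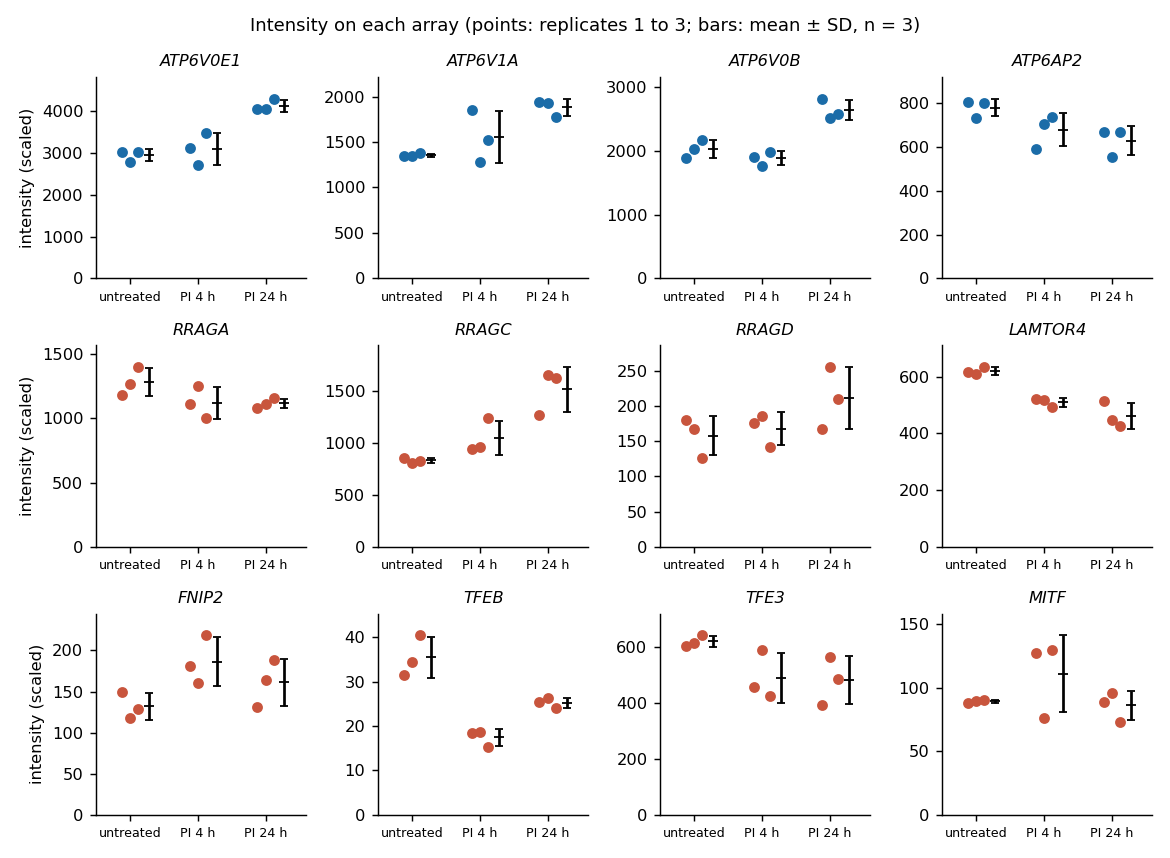
Scaled intensity on each array for 12 of the genes, with time from left to right and each vertical axis starting at 0. Points are replicates 1 to 3 and bars show the mean ± SD (n = 3), in blue for pump subunits and red for nutrient-sensing genes. RRAGC, ATP6V0E1 and ATP6V0B at 24 h lie clear above the untreated arrays, and LAMTOR4 and TFEB lie below them at both times.

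Ragulator, the membrane scaffold of the Rags, showed 3 of 4 measured subunits below the untreated level at 24 h, with a median log2 difference of -0.21. LAMTOR4 read 512.4, 448.6 and 424.7 at 24 h, against 615.6, 610.0 and 634.4 in untreated cells. The groups did not overlap, at 1.34-fold lower (log2 difference -0.42 ± 0.11, adjusted p = 0.121, limma), and the fit with a variance trend gave it an adjusted p of 0.0205. LAMTOR2 read 319.2, 429.5 and 389.2 at 24 h, against 487.5, 433.7 and 446.4 in untreated cells, with no overlap but a narrow gap. LAMTOR3 differed by -0.16 ± 0.14 and LAMTOR5 by 0.19 ± 0.13 on the log2 scale, both with overlapping groups. The folliculin complex, which activates RRAGC and RRAGD as a GTPase-activating protein, lay above its untreated level in all 3 members. FNIP1 differed by 0.30 ± 0.15, FNIP2 by 0.25 ± 0.16 and FLCN by 0.23 ± 0.20 on the log2 scale, none with an unadjusted p under 0.05.

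The transcription factors themselves were not higher. TFEB was dim, at 25.5, 26.3 and 24.0 at 24 h, against 31.5, 34.4 and 40.5 in untreated cells. The groups did not overlap (log2 difference -0.32 ± 0.11, adjusted p = 0.225, limma), but these values lie close to the pseudocount and to the median of the array, and there is no detection call to set them apart from background. TFE3, the relative under the same control, was well above that range, at 392.1, 564.2 and 483.4 at 24 h against 602.5, 614.1 and 640.6 in untreated cells. All 3 of its 24 h arrays lay below the untreated arrays, at 1.29-fold lower (log2 difference -0.37 ± 0.17, adjusted p = 0.316, limma). On the second brightest TFE3 probe set the groups overlapped, with a log2 difference of -0.01 ± 0.20 at 24 h. MITF, the melanocyte member of the family, read 89.0, 96.1 and 73.3 at 24 h, against 87.9, 89.7 and 90.0 in untreated cells, and overlapped. Its second brightest probe set was separated downward, at 46.2, 51.3 and 59.0 against 89.5, 67.6 and 81.5. There the log2 difference was -0.48 ± 0.14 (adjusted p = 0.149 over all probe sets, limma). The further probe sets of TFE3 and MITF were named after their values were seen. Of the remaining genes, SLC38A9, the lysosomal arginine sensor, differed by 0.26 ± 0.12 and its groups did not overlap. TSC2, the GTPase-activating subunit that switches off RHEB, differed by -0.30 ± 0.16 and was separated downward. MTOR, RHEB, TSC1 and RPTOR, which are the kinase, its activator, the partner of TSC2 and the mTORC1 scaffold, all overlapped, with log2 differences from -0.43 for RPTOR to 0.11 for RHEB.

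After 4 h the pump showed no common shift, and the members farthest from untreated cells were TFEB and FNIP2. By limma 49 genes passed the threshold (0.248%) and 0 of 35 listed genes did. At an unadjusted p under 0.05, 1 listed gene was higher and 3 were lower, where 6.93% of all genes were higher and 5.43% lower. No pump subunit was among them, and 8 of 15 lay above 0 with a median log2 difference of 0.06. In 3 listed genes every 4 h array lay above, and in 5 every one lay below, the untreated arrays, where 9.37% of all genes were separated upward and 8.14% downward. Of the 999 bright genes 6.21% were separated upward and 17.6% downward at 4 h, and 43.2% lay above 0. The nutrient-sensing median was -0.10, and without PI 4 h replicate 3 it was 0.03, while the pump median without that array was -0.02.

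TFEB read 18.5, 18.7 and 15.2 at 4 h, against 31.5, 34.4 and 40.5 in untreated cells. The groups did not overlap, at 1.54-fold lower (log2 difference -0.62 ± 0.11, adjusted p = 0.0717, limma), and with genes under the 40th percentile of intensity left out the adjusted p was 0.0246. The other TFEB probe set, dimmer still, differed by 0.37 in the opposite direction. FNIP2 read 180.9, 160.1 and 218.6 at 4 h, against 149.7, 118.0 and 128.3 in untreated cells, or 1.36-fold (log2 difference 0.45 ± 0.16, adjusted p = 0.315, limma). A further FNIP2 probe set, named after its values were seen, separated more widely. It read 157.7, 162.4 and 204.5 at 4 h, against 65.0, 66.0 and 80.8 in untreated cells. In a fit over all single-gene probe sets its log2 difference was 1.14 ± 0.16, with an adjusted p of 0.0623 by limma. At 24 h that probe set read 100.9, 138.4 and 120.9, still above every untreated array. The second brightest FNIP2 probe set differed by only 0.24 ± 0.16 at 4 h, and the dimmest by -0.05 ± 0.21.

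All 4 measured Ragulator subunits lay below their untreated level at 4 h, with a median log2 difference of -0.22. LAMTOR4 read 520.2, 516.3 and 491.8 at 4 h, against 615.6, 610.0 and 634.4 in untreated cells (log2 difference -0.28 ± 0.11, adjusted p = 0.361, limma). LAMTOR2 read 388.4, 366.8 and 344.2 at 4 h, against 487.5, 433.7 and 446.4 in untreated cells (log2 difference -0.30 ± 0.13, adjusted p = 0.397, limma). Neither pair of groups overlapped. RRAGC read 942.6, 964.9 and 1238.9 at 4 h, against 855.9, 807.9 and 830.3 in untreated cells, which placed all treated arrays above the untreated ones at 1.25-fold (adjusted p = 0.437, limma). The second RRAGC probe set went the other way at 4 h, at 479.9, 506.5 and 518.5 against 532.8, 566.7 and 551.6 in untreated cells. TFE3 read 454.5, 588.9 and 421.9 at 4 h, all below 602.5, 614.1 and 640.6 in untreated cells (log2 difference -0.35 ± 0.17, adjusted p = 0.441, limma). MITF read 127.4, 76.1 and 129.7 at 4 h, on both sides of 87.9, 89.7 and 90.0 in untreated cells. RRAGD read 176.6, 185.8 and 141.4 at 4 h, against 180.2, 168.2 and 126.5 in untreated cells, and overlapped. The dimmer RRAGD probe set lay below the untreated arrays at 4 h, at 27.5, 28.5 and 30.4 against 37.3, 32.3 and 38.3.

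Set directly against 4 h, the 24 h arrays held 13 of 15 pump subunits at a higher level, with a median log2 difference of 0.20, while 13 of 20 nutrient-sensing genes were higher with a median of 0.03. By limma 28 of all genes passed (0.142%) and 0 listed genes did. At an unadjusted p under 0.05, 7 listed genes were higher at 24 h, where 5.2% of all genes were, and 0 were lower, where 6.12% of all genes were. The 7 were ATP6V0B, ATP6V0E1, ATP6V0D1, ATP6V1H, ATP6V1C1, RRAGC and TFEB. ATP6V0B read 2823.2, 2513.6 and 2590.0 at 24 h, against 1899.8, 1771.1 and 1993.2 at 4 h, with a log2 difference of 0.48 ± 0.11 and an adjusted p of 0.145 by limma. That p was 0.0247 with a pseudocount of 64 and 0.0191 with a variance trend. RRAGC differed by 0.53 ± 0.15 and TFEB by 0.30 ± 0.11 on the log2 scale between 24 h and 4 h. Over the 999 bright genes the median was 0.10 in this comparison and 75.9% lay above 0, beside 49.2% of all genes. This comparison shares its 24 h arrays with that against untreated cells.

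The pump and the nutrient-sensing genes were compared on each array by the median deviation of each list from its untreated mean. For the pump the deviation was 0.30, 0.27 and 0.23 on the log2 scale at 24 h, against -0.01, -0.0005 and 0.04 in untreated cells. The nutrient-sensing medians were -0.02, 0.05 and 0.10 at 24 h, against -0.01, -0.01 and 0.02 in untreated cells. All 24 h arrays of the pump therefore lay above all its untreated arrays, and those of the nutrient-sensing genes overlapped. At 4 h the pump medians were 0.03, 0.07 and 0.095 and the nutrient-sensing medians -0.08, -0.004 and -0.14. The pump median exceeded the nutrient-sensing median by 0.32, 0.22 and 0.13 at 24 h and by 0.12, 0.07 and 0.24 at 4 h, so the treated times overlapped in this margin. The lists were not matched for brightness, and the 999 bright genes had a median log2 difference of 0.08 from untreated cells at 24 h. Untreated arrays lie near 0 by construction, and no test was made of a list whose members were chosen with earlier results known.

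**Figure D3:**
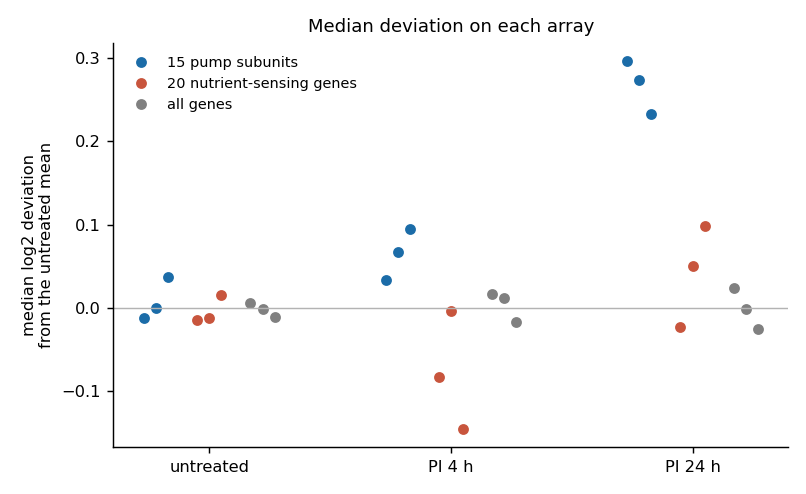
Median log2 deviation from the untreated mean on each array, over 15 pump subunits (blue), 20 nutrient-sensing genes (red) and all 19775 genes (grey), with 3 arrays per group and time from left to right. The pump lies at 0.23 to 0.30 at 24 h, above its values at 4 h and in untreated cells, whereas the grey points stay near 0. The 999 genes at least as bright as the median pump subunit are not drawn. Their median log2 difference at 24 h was 0.08.

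Of the 35 genes, 24 had further probe sets, 92 in all over the listed genes, and these did not always follow the brightest one. In 12 of the 24 at least 1 further probe set had the opposite sign at 24 h, and in 5 of them (ATP6V0A2, ATP6V0C, ATP6V1C1, ATP6V1G1 and FNIP1) such a probe set averaged 40 or more. Of probe sets averaging 40 or more, 23 of 30 for the pump and 20 of 32 for nutrient sensing lay above 0. The share over all probe sets of that brightness was not counted, and 63.4% of the 999 bright genes lay above 0. All 7 ATP6V0E1 probe sets lay above 0 and are among the 23, so these are not separate observations. The 2 probe sets next in brightness gave log2 differences of 0.49 and 0.45, and another read 288.4, 213.9 and 437.2 at 24 h against 81.5, 63.4 and 80.0 in untreated cells, at 1.81 ± 0.41 (adjusted p = 0.0969 over all probe sets, limma). ATP6V1A was alike on both of its probe sets, at 0.47 and 0.36. ATP6V1C1 split, from 0.39 on one probe set to -0.68 on its dimmest, which read 35.9, 30.8 and 48.7 at 24 h against 59.8, 78.5 and 74.3 in untreated cells. RHEB, whose brightest probe set overlapped, had a dimmer one at 86.7, 112.6 and 133.6 at 24 h against 51.8, 26.6 and 30.8 in untreated cells, or 1.29 ± 0.24 (adjusted p = 0.066, limma). These probe sets were singled out after their values were seen. Over all 41091 single-gene probe sets, 0.11% passed at 24 h and 0.0389% at 4 h, with 0 of the listed genes' probe sets among them. The part of transcript ends, splice forms or cross-hybridisation in these differences was not tested.

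**Figure D4:**
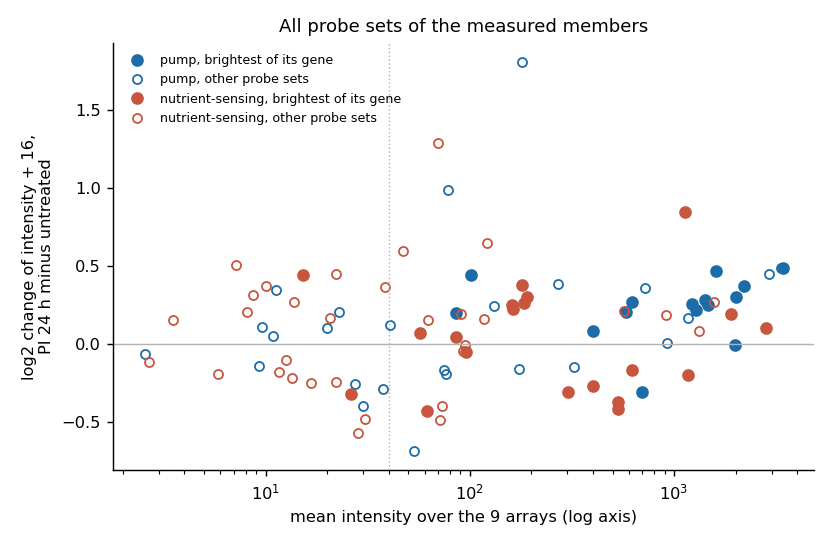
Log2 difference at 24 h against untreated cells for all 92 probe sets of the measured genes, against mean intensity over 9 arrays on a log axis. Filled points are the brightest probe set of a gene and open points the others, with pump subunits in blue and nutrient-sensing genes in red; the dotted line marks a mean of 40. The highest open point is an ATP6V0E1 probe set at 1.81.

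Related genes from lists outside the 37 gave 1 gene past the threshold at 24 h. WIPI1, an autophagy protein of the early phagophore and a known TFEB target, rose to 444.0, 420.7 and 414.7 at 24 h, against 195.3, 215.1 and 228.3 in untreated cells, a log2 difference of 0.95 ± 0.13, or 1.94-fold (adjusted p = 0.0278, limma). Without any one of the 24 h or untreated arrays the log2 difference was 0.90 to 1.00, and the limma adjusted p was then 0.0883 to 0.159, past the threshold in none of these fits. Its second brightest probe set gave a log2 difference of 0.44 (adjusted p = 0.168, limma), and with the replicate number as a block the adjusted p was 0.0814. It was 1 of 18 measured genes of 20 in a list of lysosomal and autophagy genes of the CLEAR type, in which 11 lay above and 7 below 0 at 24 h with a median log2 difference of 0.06. At 4 h 4 of the 18 lay above and 14 below 0, with a median of -0.20, and 0 passed. In that list, GLA, a lysosomal galactosidase, read 1229.8, 1063.7 and 1179.6 at 24 h against 654.8, 657.4 and 622.5 in untreated cells (adjusted p = 0.0596, limma). CTSB, a cysteine cathepsin, read 1402.1, 1227.0 and 1276.5 at 24 h against 2076.7, 2121.0 and 2068.5 in untreated cells, a log2 difference of -0.68 ± 0.15 (adjusted p = 0.074, limma). In that list the 24 h arrays lay wholly above the untreated arrays for 7 genes (38.9%) and wholly below them for 6 (33.3%). Of all genes 12.8% and 12.2% were so separated, and of the 999 bright genes 38.9% and 19.7%. Isoforms of pump subunits outside the 37, most of them known from specialised tissues, had 3 of 8 above 0 at 24 h and a median of -0.14. One of them, ATP6V0D2, known from osteoclasts, read 65.8, 71.6 and 64.3 at 24 h against 102.7, 128.1 and 112.2 in untreated cells (log2 difference -0.64 ± 0.13, adjusted p = 0.0596, limma). Of 5 measured pump assembly factors 3 lay above 0. Of 11 GATOR1, GATOR2 and KICSTOR genes, which pass amino acid signals to the Rags, 5 lay above 0 with a median of -0.01. Among 5 amino acid sensors 2 lay above 0 at 24 h. SESN2, a leucine sensor and stress-response gene, read 328.5, 430.2 and 378.9 at 4 h against 260.1, 219.7 and 205.9 in untreated cells, or 1.61-fold (adjusted p = 0.0998, limma). At 24 h SESN2 read 227.6, 245.6 and 207.6, inside the untreated range on all 3 arrays. Other mTORC1 and TSC partners had 3 of 6 above 0, and the calcium and phosphatase genes that act on TFEB 2 of 4, none past the threshold at either time. GLA, CTSB, ATP6V0D2 and SESN2 were named after their values were seen.

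**Figure D5:**
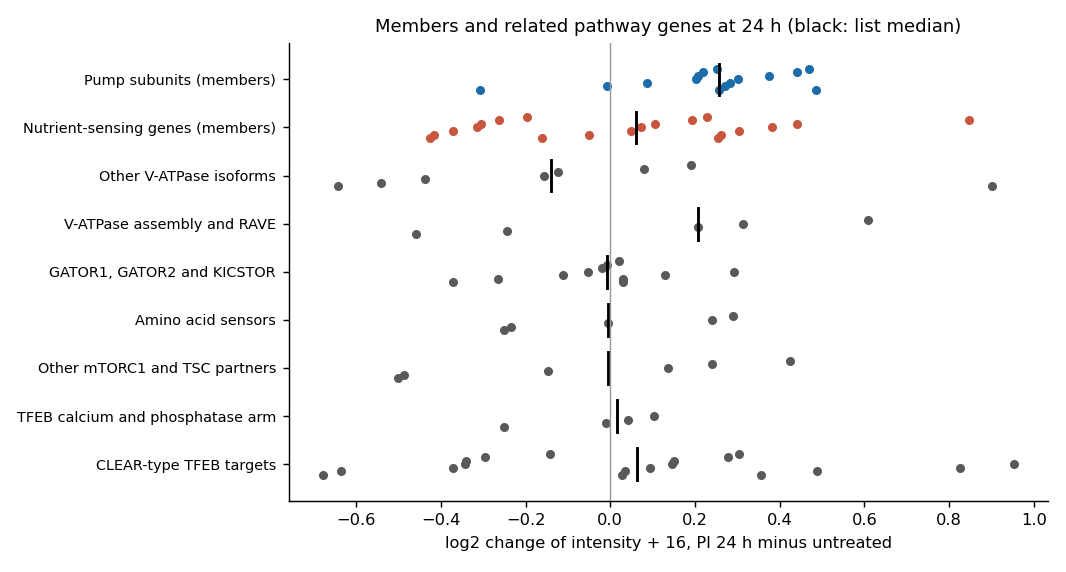
Log2 difference of intensity + 16 at 24 h against untreated cells for the listed genes, in blue and red, and for 7 lists of related genes in grey, where each point is a gene and the black bar a list's median. The pump median lies at 0.26, and the medians of the nutrient-sensing genes and the CLEAR-type targets each lie at 0.06. WIPI1 is the farthest point to the right in its list, at 0.95.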

How the data were processed

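RNA from 9 HT1080 samples was measured on one-colour Affymetrix arrays, and the titles gave each sample's group and number. The deposited values are linear intensities of single probe sets, and each array's mean after trimming 2% at each end was about 100. The authors' tools are given as R 2.9.2 and RMA, per the submitters' processing notes, without a role, and the values are not on the log2 scale that RMA gives. How the linear values were summarised, and detection calls, were not found in the sources used here. Annotation came from the supplied platform table: of 54613 probe sets other than 62 controls, 41091 named 1 gene, 1801 several and 11721 were not listed, and 41037 of those with 1 gene had their identifier in RefSeq. Each gene took the probe set with the highest mean of log2(intensity + 16), giving 19775 genes with no filter, and 39.6% of them averaged below 16.

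Differences came from limma 3.58.1 (lmFit and eBayes, R 4.3.3), with group means as the only terms and all 9 arrays in the fit, two-sided, adjusted by Benjamini-Hochberg at 0.05. A check on simulated data with independent noise required recovery only of changes larger than any seen in a listed gene. Smaller changes were also put in, but how often they were found is not given here. The listed genes, the related lists and the tests were chosen with earlier results of these data known. Arrays are given for the 12 genes of smallest p at 24 h, the 6 at 4 h, and TFEB, TFE3, MITF, RRAGC and RRAGD. Other listed genes are given by log2 difference, range or count, the arrays of RRAGB being an addition, and of related lists every gene past the threshold is named. The number of arrays limits the precision. Correlations over genes between same-numbered arrays were small, from -0.044 to 0.057. Between 24 h and 4 h they were 0.036, 0.037 and 0.057, where differently numbered arrays gave -0.038 to 0. Between 24 h and untreated arrays the same-numbered ones gave 0.042, 0.036 and 0.014, and the differently numbered ones -0.046 to 0.014. Between 4 h and untreated arrays both kinds took both signs. The labels state no pairing, and whether the numbers pair the samples was not settled. Alternatives changed the pseudocount, scaling, filter, probe set, samples and variance model, and left out each array. The fit over all probe sets was added after seeing the data.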

Additional observations from a re-analysis of the deposited data

How the results depend on the processing

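The count of listed genes past the threshold at 24 h against untreated cells, 0 in the fit reported, was 4 with a pseudocount of 64 (826 of all genes called), 1 with quantile normalization (112), 2 with genes under the 40th percentile left out (577), 1 with the compared groups alone (200), 5 with a variance trend (826), and 0 to 1 when single arrays were left out. It was 0 with a pseudocount of 1, median centring, a mean over probe sets or the second brightest probe set. The genes gained were RRAGC, ATP6V0E1, ATP6V0B, ATP6V1A and LAMTOR4. At 4 h the count was 1 with the filter (TFEB). For 24 h against 4 h it was 1 with a pseudocount of 64 and 1 with the variance trend (ATP6V0B). The pump median at 24 h, 0.26, was 0.23 with median centring, 0.11 with a mean over probe sets and 0.21 with the second brightest probe set, and 0.24 to 0.29 when single arrays were left out. The nutrient-sensing median at 24 h was -0.024 with the second brightest probe set, and 0.01 to 0.11 when single arrays were left out. At 4 h the pump median was 0.0004 with median centring and 0.018 with the second brightest probe set, and -0.019 to 0.087 when single arrays were left out. The nutrient-sensing median at 4 h was -0.16 with median centring and -0.014 with a mean over probe sets, and -0.10 to 0.027 when single arrays were left out. For 24 h against 4 h the pump median was 0.23 with quantile normalization and 0.13 with a mean over probe sets, and 0.18 to 0.26 when single arrays were left out, while the nutrient-sensing median ran from 0.0036 to 0.11. WIPI1 stayed past the threshold in 10 alternatives and missed it in 9, with a log2 difference of 1.00 under a pseudocount of 1 (adjusted p = 0.0739, limma), 0.44 with the second brightest probe set (0.168) and 0.95 with the replicate block (0.0814), and without any one 24 h or untreated array. The cause of these shifts was not tested. With the replicate number as a block 0 listed genes passed in any comparison, the medians were 0.26 and 0.06 at 24 h, and 1, 3 and 3 of all genes were called at 24 h, at 4 h and between them, against 92, 49 and 28. Counts over all genes at 24 h ran from 0 to 256 when single arrays were left out and up to 826 by setting. Intensities near 16 have no detection call, which limits TFEB and RRAGB.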
